A study of Mus musculus with 6 samples.

Results

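The gene encoding the amyloid precursor protein (App), its paralogue Aplp2 and the genes of the enzymes that cut App were examined in tdTomato+ cells sorted from cultures of bone marrow stromal cells (BMSCs). The 9 genes were chosen by symbol, and all 9 were found among the 17469 genes of the count table. They were App, Aplp2, the alpha-secretases Adam10 and Adam17, the beta-secretase Bace1, and the gamma-secretase subunits Psen2, Ncstn, Aph1a and Psenen. RNA-seq had been done on 6 libraries from mice 6 months of age, 3 with the genotype Ocn-Cre;Ai9 (control) and 3 with the genotype TgAPPswe;Ocn-Cre;Ai9 (TgAPPswe), and no treatment was given. Mice of both genotypes carried Ocn-Cre, in which the promoter of osteocalcin drives Cre recombinase, and Ai9, a tdTomato reporter that stays silent until Cre cuts out a stop cassette. The TgAPPswe mice also carried human APP with the Swedish mutation behind such a stop cassette and the CAG promoter, so that Cre switches on the transgene and the reporter together. The number of mice behind each library was not stated in the sources used here. The p-values therefore measure the spread between these libraries, which may be technical.

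App is a membrane protein with a large ectodomain and a short cytoplasmic tail. Alpha-secretases cut it within the amyloid-beta stretch and release a soluble ectodomain. Beta-secretase cuts it at the start of that stretch, and gamma-secretase, a complex of a presenilin, nicastrin, APH-1 and PEN-2, then cuts the remaining stub inside the membrane and frees amyloid-beta and the intracellular domain. The Swedish mutation lies directly before the beta-secretase site and favours the cut by beta-secretase. The same enzymes cut many other membrane proteins, such as Notch receptors, cytokine receptors and TNF.

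The mouse sequence at the beta-secretase site is shown because the transgene differs from mouse App there. The stretch lies in coding exon 16 of the 18 exons of the longest App coding transcript (coding length 2310 bases) on the minus strand of GRCm38 (chr16:84965691-84965750). Capitals mark the lysine and methionine codons that the Swedish mutation replaces.
App coding exon: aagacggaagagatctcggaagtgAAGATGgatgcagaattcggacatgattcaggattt
The deposited values are sums per gene and hold no reads. One App row was used, so reads of mouse App and any reads of the human transgene counted there cannot be told apart.

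The promoters of App and Aplp2 are shown because these paralogues differed in opposite directions between the genotypes. Each sequence, from RefSeq (GRCm38.p6), holds the 150 bases before the RefSeq start on the minus strand, for App chr16:85173708-85173857 and for Aplp2 chr9:31211849-31211998. For Aplp2 this start is also the end of the gene span in the GENCODE annotation, whereas the GENCODE span of App (chr16:84952666-85175255) reaches further upstream, so that the App stretch lies inside it. Capitals mark a GC box, the letters GGGCGG.
App promoter: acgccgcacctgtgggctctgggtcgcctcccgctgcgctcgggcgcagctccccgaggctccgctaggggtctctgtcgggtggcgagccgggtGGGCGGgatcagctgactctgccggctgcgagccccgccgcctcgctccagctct
Aplp2 promoter: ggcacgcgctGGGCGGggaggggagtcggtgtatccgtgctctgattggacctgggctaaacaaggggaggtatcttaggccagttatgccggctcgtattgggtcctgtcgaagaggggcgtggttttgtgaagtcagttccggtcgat
Over the longer window of 250 bases before to 50 after the start, searched on both strands, App held 1 GC box and Aplp2 held 4. Of the 9 genes, 8 had a promoter in the table. Adam10 held 3 GC boxes, Adam17 and Aph1a held 1 each, Psen2 held 4 at one start and 0 at its other start, and Ncstn and Psenen held 0. A GC box was present in 35.7% of all 32851 promoters of this length. An E-box (CACGTG), present in 7.15% of all promoters, was found at Adam10 and at the second start of Psen2. A TATA box (TATAAA), present in 13.6% of all promoters, was found at 0 of the 8 genes. The GC content ranged from 47.7% at the second start of Psen2 to 73.3% at Adam10, with 71.0% at App and 67.0% at Aplp2, against a median of 52.7% over all promoters. These matches describe letters in the windows only.

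Levels are given as FPKM, fragments mapped to a gene after scaling by its transcript length and the library's depth, as deposited. Differences are log2 fold changes of the estimated counts (TgAPPswe minus control) from edgeR's quasi-likelihood test after TMM scaling. Benjamini-Hochberg adjustment was made over the 12701 genes tested. The standard error (SE) was derived as the absolute log2 fold change divided by the square root of the test's F statistic. A gene is said to have risen or fallen where the adjusted p was at or below 0.05. Each control library held 19340810 to 19801060 estimated counts in all, and each TgAPPswe library 21677461 to 22037840. A floor of 3 counts corresponds to 0.136 to 0.155 CPM (counts scaled to a common library total), which covers counting error only. TMM factors were 1.07 to 1.08 in the control and 0.91 to 0.94 in TgAPPswe. Over all genes tested, the log2 fold change had a median of -0.02 with these factors and of -0.23 without them. FPKM are scaled by depth and length only, so a ratio of FPKM (TgAPPswe over control) lies below the fitted ratio by about this shift. Each fold by which a gene rose or fell comes from the fit, and the mean FPKM printed with it are on the other scale.

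All 9 genes passed the filter on low counts. Between the genotypes 4 of them rose (App, Adam17, Psen2 and Ncstn), 2 fell (Aplp2 and Psenen) and 3 did not pass the test (Adam10, Bace1 and Aph1a). In this comparison 64.0% of all tested genes passed, 32.5% upwards and 31.5% downwards, so the count of members is close to this background. The median log2 fold change of the 9 genes was 0.13, beside -0.02 for all tested genes. None of the 9 changed by 2-fold, a size that 18.1% of all tested genes reached with an adjusted p at or below 0.05, 8.9% upwards and 9.2% downwards. In FPKM, 7 of the 9 genes had no overlap between the genotypes, beside 72.3% of all tested genes, and for 4 of the 9 every TgAPPswe library lay above every control library, beside 24.0% of all tested genes.

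**Figure D1:**
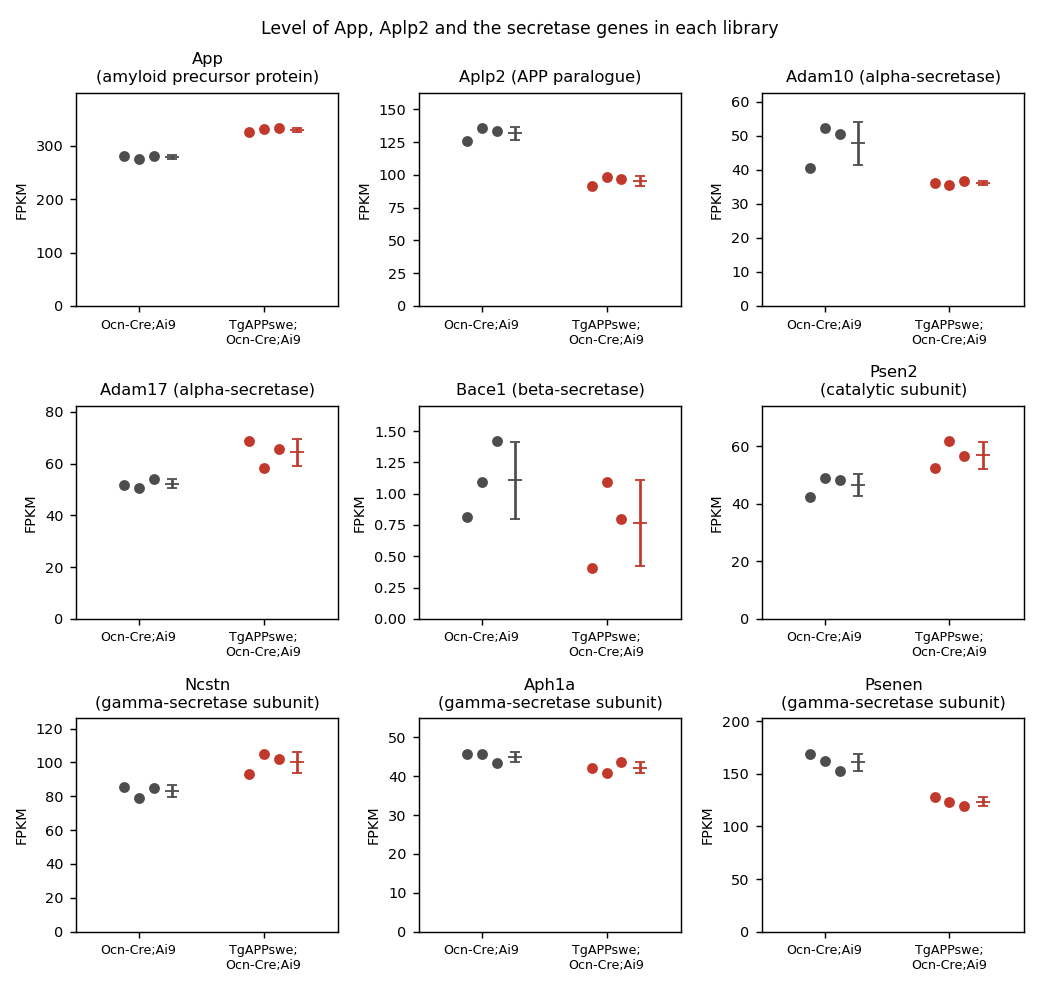
FPKM (vertical axis, starting at 0) of the 9 genes in the 3 Ocn-Cre;Ai9 libraries (grey) and the 3 TgAPPswe;Ocn-Cre;Ai9 libraries (red), with the mean and SD beside the points. App, Adam17, Psen2 and Ncstn lie higher in every TgAPPswe library than in every control library, Aplp2, Adam10 and Psenen lie lower, and Bace1 and Aph1a overlap.

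The cells were sorted as osteoblast-lineage cells, and most marker genes of that lineage were low beside the myeloid markers. The summed FPKM of 15 stromal and osteoblast markers was 150.9 to 177.4 in the control and 117.4 to 204.9 in TgAPPswe. The most abundant of them were the collagen genes Col1a1 (mean FPKM 45.48 in the control and 34.9 in TgAPPswe) and Col1a2 (52.97 and 41.98) and the chemokine gene Cxcl12 (31.74 and 44.84). Bglap, the gene of osteocalcin whose promoter drives the Cre, had a mean FPKM of 0.857 in the control and 0.273 in TgAPPswe and did not pass the filter on low counts. The FPKM of 15 myeloid markers summed to between 19850 and 20630 in the control and between 16470 and 20200 in TgAPPswe. Of the 15 myeloid markers 6 rose, 6 fell and 3 did not pass, and of the 14 stromal and osteoblast markers tested 4 rose, 2 fell and 8 did not pass. Beside these counts, 32.5% of all tested genes rose and 31.5% fell. No listed marker of either lineage was at 0 in every library. The sums of the other marker lists were at most 57.24 FPKM in any library (neutrophil, lymphoid, osteoclast, endothelial, erythroid and adipocyte), and the adipocyte sum was 37.63 to 50.62 in the control and 8.69 to 13.09 in TgAPPswe. The lower adipocyte sum came from Fabp4 (mean FPKM 44.4 and 9.16), while Adipoq (1.05 and 1.07) did not pass the test and Plin1 did not pass the filter on low counts. The part of these markers in the results below was not tested. In such bulk libraries fewer cells of one type and less RNA per cell cannot be told apart.

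App (Entrez 11820, chr16:84952666-85175255) was the most abundant of the 9 genes and its mean level lay above that of 98.6% of the genes with a level above 0. Its FPKM was 281.1, 274.95 and 280.92 in control libraries 1 to 3 and 325.21, 331.95 and 332.86 in TgAPPswe libraries 1 to 3. All TgAPPswe libraries lay above all control libraries, and libraries of a genotype differed by little (coefficient of variation 1.25% and 1.27%). App took 0.0894% to 0.0914% of all estimated counts in the control and 0.106% to 0.108% in TgAPPswe. The mean FPKM was 279.0 ± 3.5 (SD, n = 3) in the control and 330.0 ± 4.18 (SD, n = 3) in TgAPPswe, and App rose 1.37-fold (log2 fold change 0.45, SE 0.051, edgeR adjusted p = 7.87e-05). By depth-scaled FPKM alone the ratio was 1.18.

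Aplp2 (Entrez 11804, chr9:31149557-31211848) encodes a precursor protein that resembles App and is cut by the same enzymes but contains no amyloid-beta stretch. Its FPKM was 125.98, 135.55 and 133.16 in the control libraries and 91.4, 98.75 and 96.66 in TgAPPswe. Every TgAPPswe library lay below every control library, the opposite order to App. Aplp2 fell 1.19-fold in the fit (log2 fold change -0.245, SE 0.054, edgeR adjusted p = 0.00388). Its mean FPKM was 131.6 ± 4.98 in the control and 95.6 ± 3.79 in TgAPPswe (SD, n = 3 each), a ratio of 0.727 by depth-scaled FPKM alone. In stretches of 50 bases the transcripts of App and Aplp2 shared 0 windows, so that no stretch of this length could be counted for both. The third member of the family, Aplp1, was low, with a mean FPKM of 1.98 ± 0.145 in the control and 2.01 ± 0.262 in TgAPPswe, and did not pass the test (log2 fold change 0.24, adjusted p = 0.21).

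Within a library the ratio of App to Aplp2 does not depend on the scaling of libraries. It was 2.23, 2.03 and 2.11 in the control and 3.56, 3.36 and 3.44 in TgAPPswe. The genotypes did not overlap, and the ratio was 1.63-fold higher in TgAPPswe (difference of mean log2 ratios 0.70). An exact permutation test, two-sided, gave p = 0.1, the smallest p that 3 libraries against 3 allow, and 0.133 after adjustment over the 4 ratios computed. This test could therefore not reach the threshold for any ratio.

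The alpha-secretase Adam10 (Entrez 11487, chr9:70678944-70780229) is regarded as the main constitutive alpha-secretase of App. Its FPKM was 40.62, 52.25 and 50.55 in the control and 36.21, 35.51 and 36.63 in TgAPPswe. The TgAPPswe libraries were alike and lay below the control libraries, among which control library 1 was the lowest. The difference did not pass the test (log2 fold change -0.19, SE 0.091, edgeR adjusted p = 0.102). It passed without control library 1 (log2 fold change -0.30, adjusted p = 0.00221) and when libraries were scaled by depth only (log2 fold change -0.40, adjusted p = 0.00471).

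Adam17 (Entrez 11491, chr12:21323509-21373632), also called TACE, is the sheddase that releases TNF and cuts App after stimulation of the cell. Its FPKM was 51.63, 50.78 and 54.16 in the control and 68.71, 58.5 and 65.74 in TgAPPswe. The lowest TgAPPswe library lay above the highest control library. Adam17 rose 1.43-fold (log2 fold change 0.52, SE 0.077, edgeR adjusted p = 0.000423), the largest of the 4 rises among the 9 genes in this fit. The 4 rises were close in size and their order is not settled. Without TgAPPswe library 1 the log2 fold change of Adam17 (0.455) lay below those of Psen2 (0.529) and Ncstn (0.523). The ratio of Adam10 to Adam17 was 0.787, 1.03 and 0.933 in the control and 0.527, 0.607 and 0.557 in TgAPPswe. The ratio was 1.62-fold lower in TgAPPswe without overlap between the genotypes (difference of mean log2 ratios -0.69 [exact permutation p = 0.1, adjusted 0.133]).

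Adam9, which also cuts App in some settings, had a mean FPKM of 59.8 ± 6.19 in the control and 75.51 ± 0.898 in TgAPPswe and rose 1.47-fold (log2 fold change 0.56, SE 0.078, adjusted p = 0.000296). Adam8, a related sheddase of leukocytes, was the most abundant ADAM gene listed, at 347.5 ± 57.3 and 350.2 ± 8.82 FPKM, and did not pass the test (log2 fold change 0.23, adjusted p = 0.102). It passed without control library 2, which held the highest value (log2 fold change 0.34, adjusted p = 0.0154), and with DESeq2 (log2 fold change 0.24, adjusted p = 0.0477). Adam19 had an FPKM of 11.93, 10.93 and 11.64 in the control and 10.5, 2.81 and 7.36 in TgAPPswe. The wide spread of the TgAPPswe libraries left it without a call (log2 fold change -0.46, adjusted p = 0.297), and the difference rested on TgAPPswe library 2, since the log2 fold change was -0.08 without that library (adjusted p = 0.626) and -0.91 without TgAPPswe library 1 (adjusted p = 0.0356).

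Bace1 (Entrez 23821, chr9:45838545-45862484), the beta-secretase of App, was the scarcest of the 9 genes. Its FPKM was 0.81, 1.09 and 1.42 in the control and 0.41, 1.09 and 0.8 in TgAPPswe. The genotypes overlapped, and the mean level of Bace1 lay above that of 37.2% of the genes with a level above 0. Between 36.77 and 109.19 estimated counts stood behind each value, above the floor of 3 counts. The difference did not pass the test (log2 fold change -0.30, SE 0.33, edgeR adjusted p = 0.451), and its SE was the widest of the 9 genes, with a coefficient of variation between libraries of 27.6% in the control and 44.5% in TgAPPswe. The log2 fold change was -0.01 without TgAPPswe library 1, -0.60 without TgAPPswe library 2 and -0.085 without control library 3. Its estimated counts were fractional in all 6 libraries, as estimated counts are where reads also match another gene. The next gene in the order of mean FPKM lay 40.6-fold above Bace1 in the control (Aph1a) and 47.1-fold above it in TgAPPswe (Adam10). The ratio of Bace1 to Adam10 was 0.0199, 0.0209 and 0.0281 in the control and 0.0113, 0.0307 and 0.0218 in TgAPPswe, and the genotypes overlapped (difference of mean log2 ratios -0.21 [exact permutation p = 0.9, adjusted 0.9]). The sign of this difference turned without TgAPPswe library 1 (0.19). Bace2, a related protease, had 1 to 5 counts in the control libraries and 5 to 9 in TgAPPswe and did not pass the filter on low counts.

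Of the 4 gamma-secretase subunit genes among the members, Psen2 and Ncstn rose, Psenen fell with a borderline call, and Aph1a did not pass. Psen2 (Entrez 19165, chr1:180227004-180263467) encodes presenilin 2, which holds the catalytic site. Its FPKM was 42.16, 49.06 and 48.15 in the control and 52.4, 61.71 and 56.46 in TgAPPswe. The genotypes did not overlap, and Psen2 rose 1.4-fold (log2 fold change 0.49, SE 0.075, edgeR adjusted p = 0.000499). Ncstn (Entrez 59287, chr1:172066013-172082789) encodes nicastrin, the subunit that limits the access of substrates. Its FPKM was 85.7, 79.09 and 84.61 in the control and 93.09, 104.99 and 101.98 in TgAPPswe. It rose 1.4-fold without overlap (log2 fold change 0.48, SE 0.060, adjusted p = 0.000144), and its estimated counts were fractional in all 6 libraries.

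Psenen (Entrez 66340, chr7:30561865-30563627) encodes PEN-2, the small subunit needed for the maturation of presenilin. Its FPKM was 168.85, 161.76 and 152.52 in the control and 127.89, 123.14 and 119.37 in TgAPPswe. Every TgAPPswe library lay below every control library. After TMM scaling it fell 1.12-fold (log2 fold change -0.17, SE 0.065, edgeR adjusted p = 0.0489). This call was borderline: it was lost with DESeq2 (adjusted p = 0.114), without control library 1 (adjusted p = 0.101) or 2 (adjusted p = 0.0974), and without TgAPPswe library 2 (adjusted p = 0.128) or 3 (adjusted p = 0.188). The fall was larger and passed when libraries were scaled by depth only (log2 fold change -0.383, edgeR adjusted p = 0.000603). It also passed with limma on log2(FPKM + 0.1) (-0.382, adjusted p = 0.00044), so its size depended on the scaling.

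Aph1a (Entrez 226548, chr3:95893921-95898592) encodes the main APH-1 subunit, the scaffold of the complex. Its FPKM was 45.71, 45.65 and 43.35 in the control and 42.06, 40.76 and 43.68 in TgAPPswe. The genotypes overlapped, and the sign of the difference depended on the scaling, with a log2 fold change of 0.13 after TMM scaling (SE 0.058, edgeR adjusted p = 0.0795) and -0.09 when libraries were scaled by depth only (adjusted p = 0.184). It passed without TgAPPswe library 2 (log2 fold change 0.17, adjusted p = 0.0443).

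**Figure D2:**
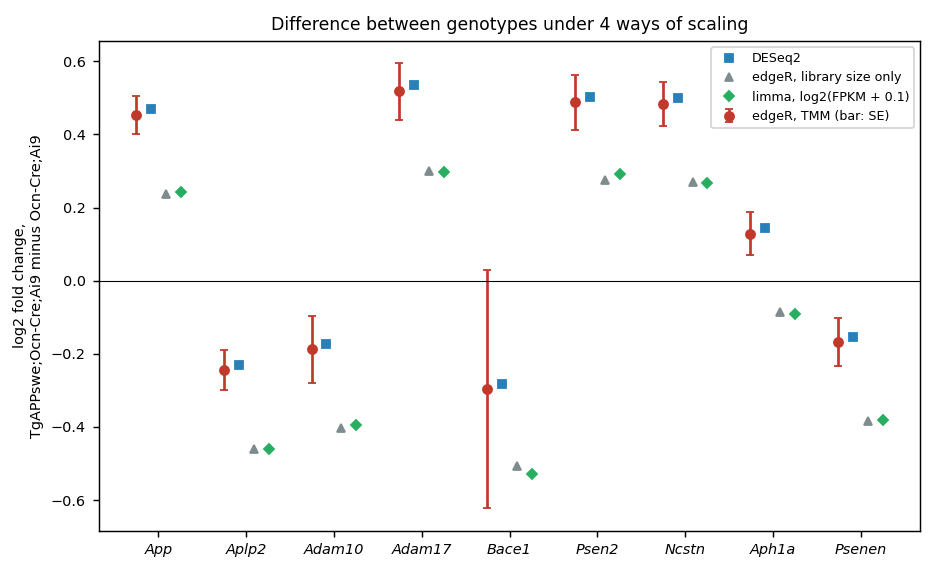
Log2 fold change (vertical axis, TgAPPswe;Ocn-Cre;Ai9 minus Ocn-Cre;Ai9) of the 9 genes from edgeR with TMM scaling (red, bars are the SE), DESeq2 (blue), edgeR with library size only (grey) and limma on log2(FPKM + 0.1) (green). App, Adam17, Psen2 and Ncstn lie above 0 and Aplp2, Adam10, Bace1 and Psenen below 0 under each of the 4, while Aph1a lies on either side of 0.

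Rodents have further APH-1 genes, Aph1b and Aph1c, which arose by duplication. Aph1c (Entrez 68318) had an FPKM of 11.59, 11.31 and 11.4 in the control and 3.29, 3.73 and 3.7 in TgAPPswe. The libraries of each genotype lay close together and far from the other genotype. Aph1c fell 2.76-fold (log2 fold change -1.47, SE 0.063, edgeR adjusted p = 3.8e-07), a larger change than that of any of the 9 members. Aph1b had an FPKM of 2.82, 3.4 and 3.27 in the control and 2.79, 2.56 and 2.76 in TgAPPswe and did not pass the test, with a log2 fold change of -0.04 after TMM scaling (adjusted p = 0.7), 0.01 without control library 2 (adjusted p = 0.967) and -0.26 when libraries were scaled by depth only (adjusted p = 0.0338).

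The estimated counts of both copies were fractional in all 6 libraries, and reads had thus been divided between similar transcripts. In windows of 50 bases 18.5% of the Aph1c sequence (956 of 5156 windows) was also found in Aph1b, while 0 were found in Aph1a. The split between the copies is therefore uncertain. The sum of both was a whole number in each library, 1470, 1503 and 1468 counts in the control and 673, 699 and 703 in TgAPPswe. The sums did not overlap, and a fit on the summed counts, chosen after the data had been seen, gave a fall of 2.06-fold (log2 fold change -1.04, SE 0.052, adjusted p = 8.63e-07). Aph1c held 76.9% to 80.4% of the summed FPKM of both copies in the control and 54.1% to 59.3% in TgAPPswe.

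**Figure D3:**
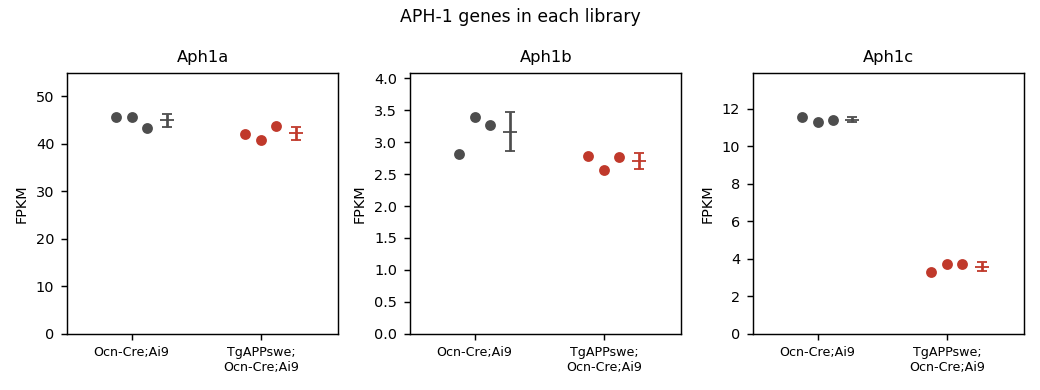
FPKM (vertical axis, starting at 0) of the 3 APH-1 genes in the 3 Ocn-Cre;Ai9 libraries (grey) and the 3 TgAPPswe;Ocn-Cre;Ai9 libraries (red), with the mean and SD beside the points. Aph1c lies at 11.31 to 11.59 in the control and 3.29 to 3.73 in TgAPPswe, while Aph1a, the most abundant copy, overlaps.

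The order of the 9 genes by mean FPKM differed between the genotypes in the places of Aplp2, Ncstn, Adam10, Psen2 and Aph1a. In the control it ran App, Psenen, Aplp2, Ncstn, Adam17, Adam10, Psen2, Aph1a and Bace1. The neighbours from Adam17 to Aph1a overlapped in their ranges and were not separated in this order. In TgAPPswe it ran App, Psenen, Ncstn, Aplp2, Adam17, Psen2, Aph1a, Adam10 and Bace1, and only Ncstn and Aplp2, and Adam17 and Psen2, overlapped. Adam10 thus moved from the sixth place to the eighth, and in TgAPPswe its range lay below that of Aph1a. App lay 1.73-fold above Psenen in the control and 2.67-fold above it in TgAPPswe.

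**Figure D4:**
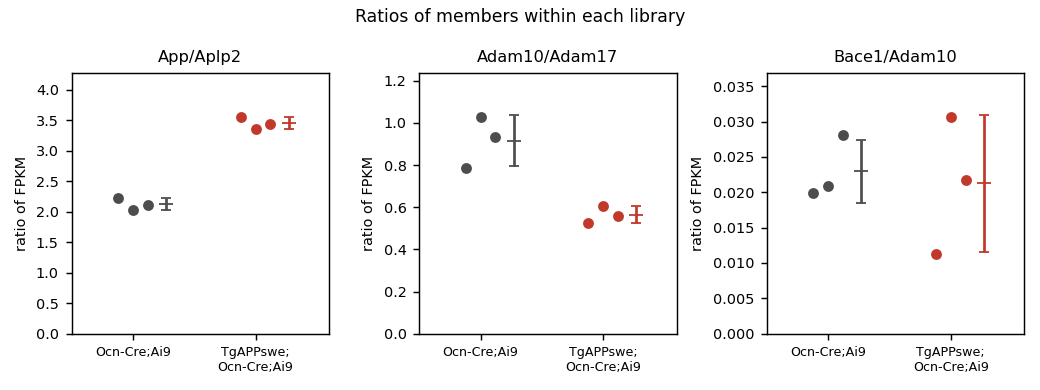
Ratio of FPKM within each library (vertical axis, starting at 0) for App to Aplp2, Adam10 to Adam17 and Bace1 to Adam10 in the 3 Ocn-Cre;Ai9 (grey) and the 3 TgAPPswe;Ocn-Cre;Ai9 libraries (red), with the mean and SD beside the points. App to Aplp2 is 2.03 to 2.23 in the control and 3.36 to 3.56 in TgAPPswe, Adam10 to Adam17 is lower in every TgAPPswe library, and Bace1 to Adam10 overlaps.

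Proteins that steer the secretases were examined in a list of 19 genes, of which 17 were tested. Of these 6 rose, 6 fell and 5 did not pass (70.6% passed, beside 64.0% of all tested genes, median log2 fold change 0.07). The most abundant, Rtn4, a reticulon that binds BACE1, had a mean FPKM of 194.9 ± 19.8 in the control and 176.3 ± 11.8 in TgAPPswe and did not pass (log2 fold change 0.07 after TMM scaling [adjusted p = 0.5], -0.14 by depth only [adjusted p = 0.158]). Gsap, the gamma-secretase activating protein, had an FPKM of 15.43, 16.61 and 16.05 in the control and 30.45, 27.36 and 29.48 in TgAPPswe. It rose 2.07-fold without overlap (log2 fold change 1.05, SE 0.072, adjusted p = 4.42e-06).

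The regulators of the alpha-secretases moved both ways. The inactive rhomboids iRhom1 and iRhom2 carry ADAM17 through the secretory pathway. Rhbdf2, the gene of iRhom2, rose 1.99-fold, from 27.2 ± 1.21 to 45.74 ± 5.06 FPKM (log2 fold change 0.99, SE 0.090, adjusted p = 2.21e-05). Rhbdf1, the gene of iRhom1, fell 1.56-fold, from 5.13 ± 0.118 to 2.84 ± 0.346 FPKM (log2 fold change -0.64, SE 0.11, adjusted p = 0.00109). Neither gene overlapped between the genotypes, and Rhbdf2 was the more abundant of the pair in every library. The tetraspanins of the TspanC8 group, named in full after their values were seen except for Tspan33, escort ADAM10. Of the 6 listed, Tspan17 rose (log2 fold change 0.36, adjusted p = 0.00191), Tspan14 fell (log2 fold change -0.57, adjusted p = 3.06e-05), and Tspan33 fell 2.13-fold (log2 fold change -1.09, SE 0.16, adjusted p = 0.000369). Tspan5 did not pass (log2 fold change -0.25, adjusted p = 0.121), and Tspan10 and Tspan15 did not pass the filter on low counts. The most abundant of them, Tspan14, lay at 52.2 ± 2.31 FPKM in the control and 30.18 ± 0.655 in TgAPPswe.

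Proteins that bind App, most of them at its cytoplasmic tail, were listed as 17 genes with the relatives of these proteins. Of the 16 tested 4 rose, 5 fell and 7 did not pass (56.2% passed, beside 64.0% of all tested genes, median log2 fold change -0.07). Itm2b, which encodes BRI2, a membrane protein that binds App, was the most abundant at 1535 ± 73 FPKM in the control and 1281 ± 47.4 in TgAPPswe. It did not pass after TMM scaling (log2 fold change -0.05, adjusted p = 0.523) but did when libraries were scaled by depth only (log2 fold change -0.26, adjusted p = 0.00439). Its relative Itm2c rose 1.48-fold, from 140.7 ± 3.85 to 179.4 ± 11.3 FPKM (log2 fold change 0.56, adjusted p = 4.42e-05). Appbp2, named for its binding to App, rose 1.65-fold, from 9.17 ± 1.12 to 13.02 ± 0.626 FPKM (log2 fold change 0.72, adjusted p = 0.000162). The endocytic adaptor gene Dab2 fell 2.99-fold, from 438.8 ± 12.3 to 125.3 ± 14.4 FPKM (log2 fold change -1.58, SE 0.079, adjusted p = 8.47e-07). Apbb2, a member of the Fe65 family, fell 3.64-fold, from 11.61 ± 1.33 to 2.73 ± 0.312 FPKM (log2 fold change -1.87, SE 0.13, adjusted p = 4.85e-06). Dab2 and Apbb2 did not overlap between the genotypes.

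Of 11 proteases known to degrade amyloid-beta, 10 were tested. Of these 6 rose, 3 fell and 1 did not pass (90.0% passed, beside 64.0% of all tested genes, median log2 fold change 0.55). With a 2-fold change 4 rose and 1 fell, beside 8.9% upwards and 9.2% downwards of all tested genes. Mmp9, a secreted gelatinase, had an FPKM of 2.74, 1.31 and 1.6 in the control and 169.19, 69.29 and 124.23 in TgAPPswe. It was low in every control library and varied more than 2-fold among the TgAPPswe libraries, and it rose 74.9-fold (log2 fold change 6.23, SE 0.41, adjusted p = 3.91e-06). Mme, the gene of neprilysin, rose 3.31-fold from a low level, from 0.5 ± 0.141 to 1.53 ± 0.757 FPKM (log2 fold change 1.73, SE 0.31, adjusted p = 0.00126), with a difference of 0.715 on the scale of log2(FPKM + 1). Plau, the urokinase gene, fell 3.43-fold, from 24.95 ± 2.55 to 6.27 ± 0.842 FPKM (log2 fold change -1.78, SE 0.11, adjusted p = 2.4e-06). Ctsb, the lysosomal protease cathepsin B and the most abundant gene of the list, fell 1.63-fold, from 5298 ± 155 to 2750 ± 160 FPKM (log2 fold change -0.70, SE 0.066, adjusted p = 2.81e-05), with fractional counts in all 6 libraries. The third fall was that of Ctsd, cathepsin D, named after its values were seen (log2 fold change -0.64, adjusted p = 4.83e-05).

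Other substrates of the secretases were listed as 25 genes. Of the 21 tested 7 rose, 9 fell and 5 did not pass (76.2% passed, beside 64.0% of all tested genes, median log2 fold change -0.10). Tnf, whose product is released by ADAM17, rose 6.01-fold, from 36.22 ± 1.82 to 187.3 ± 26.7 FPKM (log2 fold change 2.59, SE 0.12, adjusted p = 4.55e-07). Its receptor gene Tnfrsf1b, also cut by ADAM17, rose 2.9-fold, from 76.2 ± 3.04 to 190.3 ± 6.95 FPKM (log2 fold change 1.54, SE 0.064, adjusted p = 3.12e-07). The myeloid receptor genes Trem2 and Csf1r, whose products are shed and then cut by gamma-secretase, fell with log2 fold changes of -2.71 and -1.49. Jag2, a Notch ligand, fell 3.86-fold from a low level, from 0.73 ± 0.0608 to 0.17 ± 0.0265 FPKM (log2 fold change -1.95, SE 0.21, adjusted p = 6.24e-05). On the scale of log2(FPKM + 1), which understates changes of low genes, the difference was -0.56. The Notch receptors, named here after their values were seen, did not move together. Notch1 and Notch2 rose after TMM scaling by less than 1.5-fold (log2 fold change 0.20 and 0.30), but both overlapped between the genotypes in FPKM, and by FPKM alone Notch1 was slightly lower in TgAPPswe (16.85 in the control and 16.66 in TgAPPswe). Notch3 did not pass (0.22), and Notch4 fell (-1.45).

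**Figure D5:**
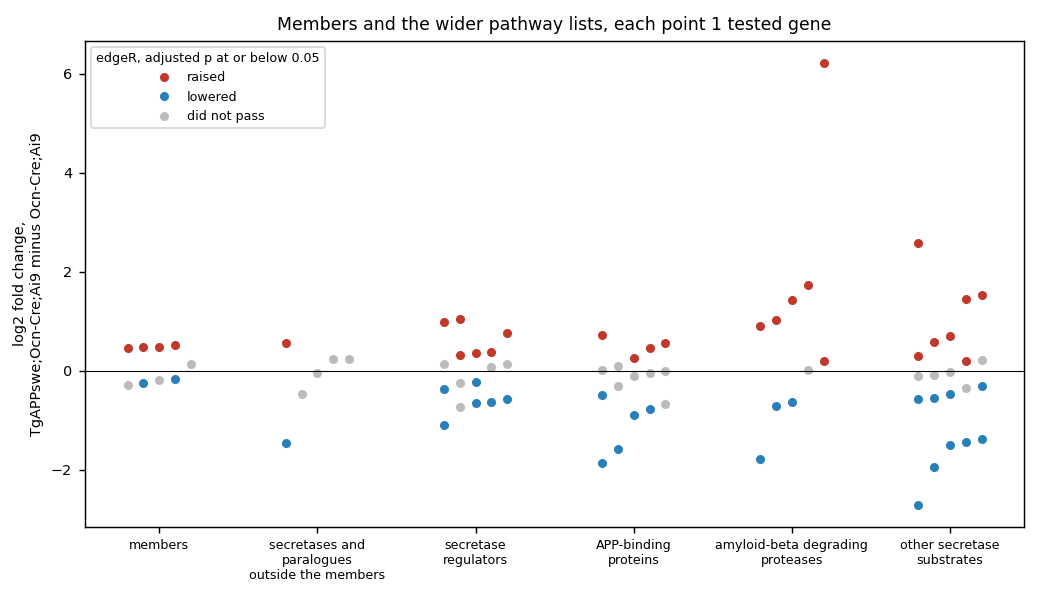
Log2 fold change (vertical axis, edgeR, TgAPPswe;Ocn-Cre;Ai9 minus Ocn-Cre;Ai9) of each tested gene of the 9 members and the 5 wider lists, coloured by whether it rose (red), fell (blue) or did not pass (grey) at an adjusted p of 0.05. The members lie between -0.30 and 0.52, and Mmp9 lies at 6.23.

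The genes whose level over the 6 libraries was most like that of App were Irak3 and Map3k8 (Pearson r of log2 CPM with App 0.9999 each), and Hspa8, Cd300e and Cflar (0.9997 each), out of 6255 genes with a mean FPKM of at least 10. All 5 were higher in TgAPPswe, with log2 fold changes from 0.48 (Hspa8) to 5.42 (Cd300e). Among the members Ncstn (0.978), Adam17 (0.958) and Psen2 (0.929) varied with App, and Aplp2 varied against it (-0.973). The 6 libraries form 2 genotypes, so a steady difference between the genotypes gives a value near 1 or -1, and these values are descriptions only.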

How the data were processed

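RNA-seq was compared between 3 Ocn-Cre;Ai9 (control) and 3 TgAPPswe;Ocn-Cre;Ai9 libraries, grouped by the genotype in the labels. The authors used DNBSEQ sequencing, filtered out reads of rRNA, of low quality or with adaptors, and aligned the rest with HISAT2. The submitters' processing notes name HISAT2 2.0.4, Bowtie2 2.2.5, RSEM 1.2.12, DESeq2 1.4.5 and the build mm10. The authors deposited estimated counts per gene, of which 13.3% to 14.4% per library were fractional, and FPKM values rounded to 2 decimals. A further deposited table repeats the FPKM with a log2 ratio and a p-value of the authors and was not used.

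The test was planned on raw counts. The estimated counts were therefore rounded to whole numbers and compared with edgeR 4.0.16 in R 4.3.3 (filterByExpr, TMM, quasi-likelihood test, Benjamini-Hochberg), without a replicate block. Genes passed at an adjusted p at or below 0.05. Ratios were compared within libraries by an exact permutation test. Alternatives were DESeq2 1.42.0, RLE size factors, library size only, 2 other filters, a replicate block, limma 3.58.1 on log2(FPKM + 1) and log2(FPKM + 0.1), a 2-fold threshold, and leaving out each library. The procedure was also run on simulated data in which few genes changed, unlike in these libraries, and nothing here rests on that run. Coordinates were taken from the GRCm38 annotation, the same assembly as mm10, and promoters from RefSeq. Tables were prepared in Python 3.11.15.

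The members and lists were chosen with earlier results of these data known. Named genes were all members, all genes of the list of other secretases and paralogues, and from each other list the most abundant gene and the 2 largest rises and falls. The 5 genes most like App complete them. For 1 gene of these lists and the 1 ratio that uses it nothing is reported here, and the ratio is counted in the adjustment.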

Additional observations from a re-analysis of the deposited data

How the results depend on the processing

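App kept its direction and its call in all 15 alternatives, with log2 fold changes from 0.24 to 0.47, and so did Aplp2, Adam17, Psen2 and Ncstn. Of the members 4 rose in each alternative with all 6 libraries, except that 0 did so when a 2-fold change was also required, and 4 to 5 rose when 1 library was left out (5 without TgAPPswe library 2). The number that fell was 2 in the reported fit, 1 with DESeq2, RLE size factors or no filter beyond 1 count, 3 with library size only or limma, and 0 with the 2-fold requirement. It was 1 to 2 when 1 library was left out, and 1 without control library 2 or TgAPPswe library 2 or 3. The call that was lost with DESeq2, RLE size factors and no filter was that of Psenen. Aph1a changed sign with library size only (-0.086) and limma on FPKM with a pseudocount of 0.1 (-0.091) or 1 (-0.089, also without a filter). Rtn4 changed sign with library size only (-0.145), limma (-0.141 with either pseudocount and without a filter) and without control library 1 (range -0.011 to 0.136 when 1 library was left out). Aph1b changed sign without control library 2 (0.006) and without TgAPPswe library 2 (0.003), in a range of -0.119 to 0.006 when 1 library was left out. The difference of the ratio of Bace1 to Adam10 (-0.207) turned to 0.19 without TgAPPswe library 1 and to 0.124 on FPKM + 1. With a pseudocount of 1 the changes of the low genes Jag2 (-0.564) and Mme (0.715) were smaller and kept their calls. Library size only and limma on FPKM leave out the TMM factors, which moved the median of all tested genes to -0.234 and -0.219 (pseudocount 0.1). The cause of the other changes was not tested.

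The correlations of same-numbered libraries were 0.0127, 0.0066 and 0.141, and those of differently numbered libraries lay between -0.0522 and 0.0251. The highest value was that of the libraries numbered 3, so these values do not settle whether the replicate numbers pair the libraries. With the replicate number as a block 4 members rose and 2 fell, as without it, and the log2 fold change of App was 0.45 (adjusted p = 0.000535). With 3 libraries a genotype the exact permutation test of a ratio could not reach the threshold, and the spread of Bace1 between libraries gave it an SE of 0.33.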
